A study of Mus musculus with 11 samples.

Results

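FOXO factors and 7 genes described as induced by them were followed in primary mouse granulosa cells given siRNA against Akt1. The members were chosen by gene symbol: the factors Foxo1, Foxo3 and Foxo4, and the genes Pik3ip1, Bcl6, Sesn1, Sesn3, Ccng2, Cdkn1b and Txnip. All 10 were among the 24490 genes counted, and all 10 passed the filter on low counts. The tested cells came from ovaries of RjOrl:SWISS mice and received 1 of 4 pools of Akt1 siRNAs, with 2 libraries per pool. Pool 1 left out siRNA 9, pool 2 left out siRNA 7, pool 3 left out siRNA 8 and pool 4 left out siRNA 6, so each pool held 3 of the 4 siRNAs. The protocol and the sample titles name the pools differently, and they were matched here by number. The control cells, called scramble, received a nontargeting siRNA and gave 3 libraries. All cells received 30 pmol of siRNA with Lipofectamine RNAiMax, the mix was replaced after 5 h, and total RNA was taken at 30 h. Whether the replicates came from separate cultures is not stated, and p-values cover only the spread between libraries, which can be technical.

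FOXO proteins are forkhead transcription factors that sit at the end of the PI3K and AKT pathway. When a growth factor activates PI3K, AKT phosphorylates FOXO proteins, 14-3-3 proteins bind them and they leave the nucleus. When AKT is inactive they stay on chromatin and induce genes that slow the cell cycle, limit growth signalling and handle stress. In granulosa cells, which surround the oocyte and respond to FSH through this pathway, FOXO1 is the factor best known for holding back proliferation and lipid and steroid synthesis, while FOXO3 is known mainly for keeping oocytes of resting follicles dormant. The libraries measured mRNA and not the phosphorylation or location of the proteins.

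Levels are given as CPM, the TMM-scaled read count of a gene relative to the reads of its library in genes that passed the filter on low counts. The 11 libraries held 23851293 to 32643158 reads in genes. Scramble replicate 1 stood apart, with a median correlation across genes of 0.948 with the other 10 libraries, against at least 0.989 for each of those. It also followed transcript length. Against the mean of scramble replicates 2 and 3 its genes had a median log2 difference of 0.81 in the shortest of 5 length classes and −0.93 in the longest. The members followed the same order: Foxo3 was at 6.05 CPM in scramble replicate 1, against 44.4 and 41.7 CPM in replicates 2 and 3, and Sesn3 was at 6.60 CPM, against 28.0 and 28.4 CPM. Their longest annotated transcripts have 6848 and 9125 bases. Pik3ip1, with 2573 bases the shortest of the 10, was the single member higher in that library, by 0.36 log2. Across the 10 members the rank correlation of this difference with transcript length was −0.879, against −0.719 across all 13761 genes with a length. Genes are not independent replicates, and both values describe the same library. Counts of members called against scramble are therefore given with all 3 scramble libraries and with replicates 2 and 3 alone. Values of single genes in a pool are mainly against replicates 2 and 3, with some from all 3.

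**Figure D1:**
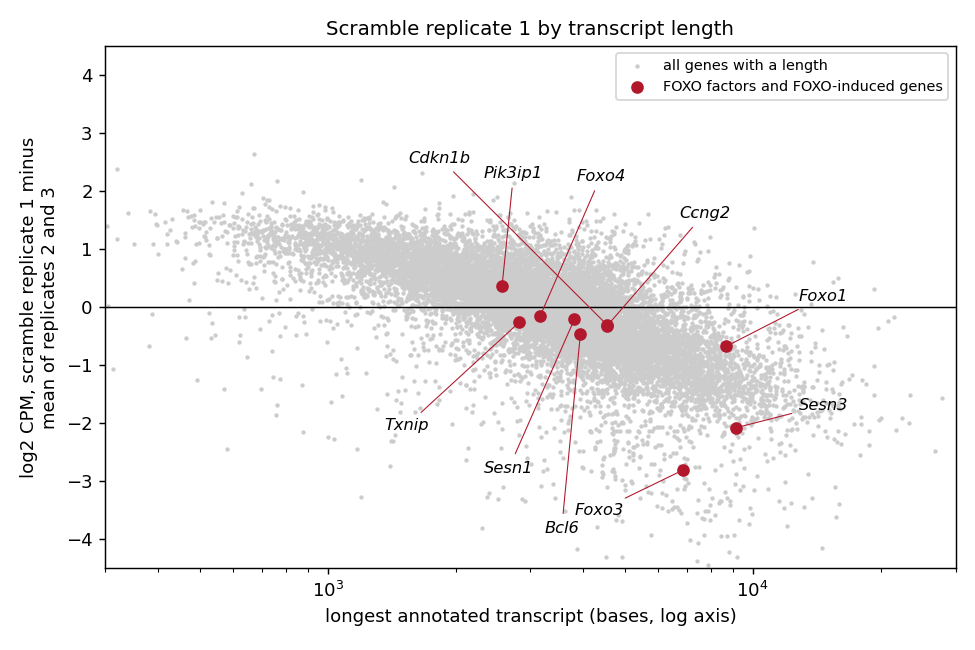
Log2 difference in CPM between scramble replicate 1 and the mean of scramble replicates 2 and 3 (vertical axis) against the longest annotated transcript in bases (horizontal log axis). Grey points are genes, of which 102 lie outside the axes, and red points are the 10 members. Pik3ip1 at 0.36 is the only member above 0, and Foxo3 at −2.81 and Sesn3 at −2.08 are the lowest.

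The targeted gene was low in all 8 pool libraries. Akt1 was at 63.0 and 57.7 CPM in pool 1, 53.8 and 56.3 in pool 2, 77.3 and 79.6 in pool 3 and 54.6 and 61.6 in pool 4, against 530, 441 and 412 CPM in scramble. The pools thus kept between 11.9% and 17.0% of the mean scramble level, and pool 3 kept the most. Of 10 granulosa cell markers, 8 had at least 1 CPM in every library, and none was at 0 in all libraries. The FSH receptor gene Fshr and Amh stayed below 1 CPM in every library, at 0.0684 to 0.362 and 0.215 to 0.829 CPM. The summed level of the 10 markers was 1870 to 3050 CPM in the pools, against 3180 to 3940 in scramble. Most of this sum was Inha, with 1210 to 2120 CPM in the pools, against 2200 to 3490 in scramble, and Inha is also on a list of FOXO-regulated genes used below. Foxl2 was at 133 to 161 CPM in pools 1, 2 and 4 and at 109 and 120 in pool 3, against 203, 146 and 146 in scramble. The sums also parted the pools, with 1870 to 2550 CPM in pools 1, 3 and 4, against 2820 to 3050 in pool 2. Theca and stroma markers, of which 5 of 6 had at least 1 CPM in every library, summed to 3040 to 4800 CPM in the pools, against 4480 to 6620 in scramble, and to 3040 to 3650 CPM in pools 1, 3 and 4, against 4750 to 4800 in pool 2. In that sum Acta2 had 813 to 1940 CPM in the pools, against 1630 to 3040 in scramble, and Tagln 631 to 1180, against 1000 to 2180, while Pdgfra had 56.7 to 65.5, against 31.8, 59.1 and 67.2. Endothelial, leukocyte and oocyte marker sums stayed at or below 12.5 CPM in every library, and surface epithelium sums were 148 to 197 CPM in the pools and 178 to 269 in scramble. The part of these markers in the results below was not tested. In such bulk RNA, fewer cells of a type and less RNA per cell cannot be told apart.

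Per length, Txnip was the most abundant member in scramble replicates 2 and 3, with a mean of 35 CPM per kilobase of its longest transcript. Cdkn1b followed with 17.4 CPM per kilobase and Ccng2 with 10.2. The factors lay close together, with Foxo4 at 8.89, Foxo1 at 6.90 and Foxo3 at 6.29 CPM per kilobase, and Sesn3 was lowest at 3.09.

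**Figure D2:**
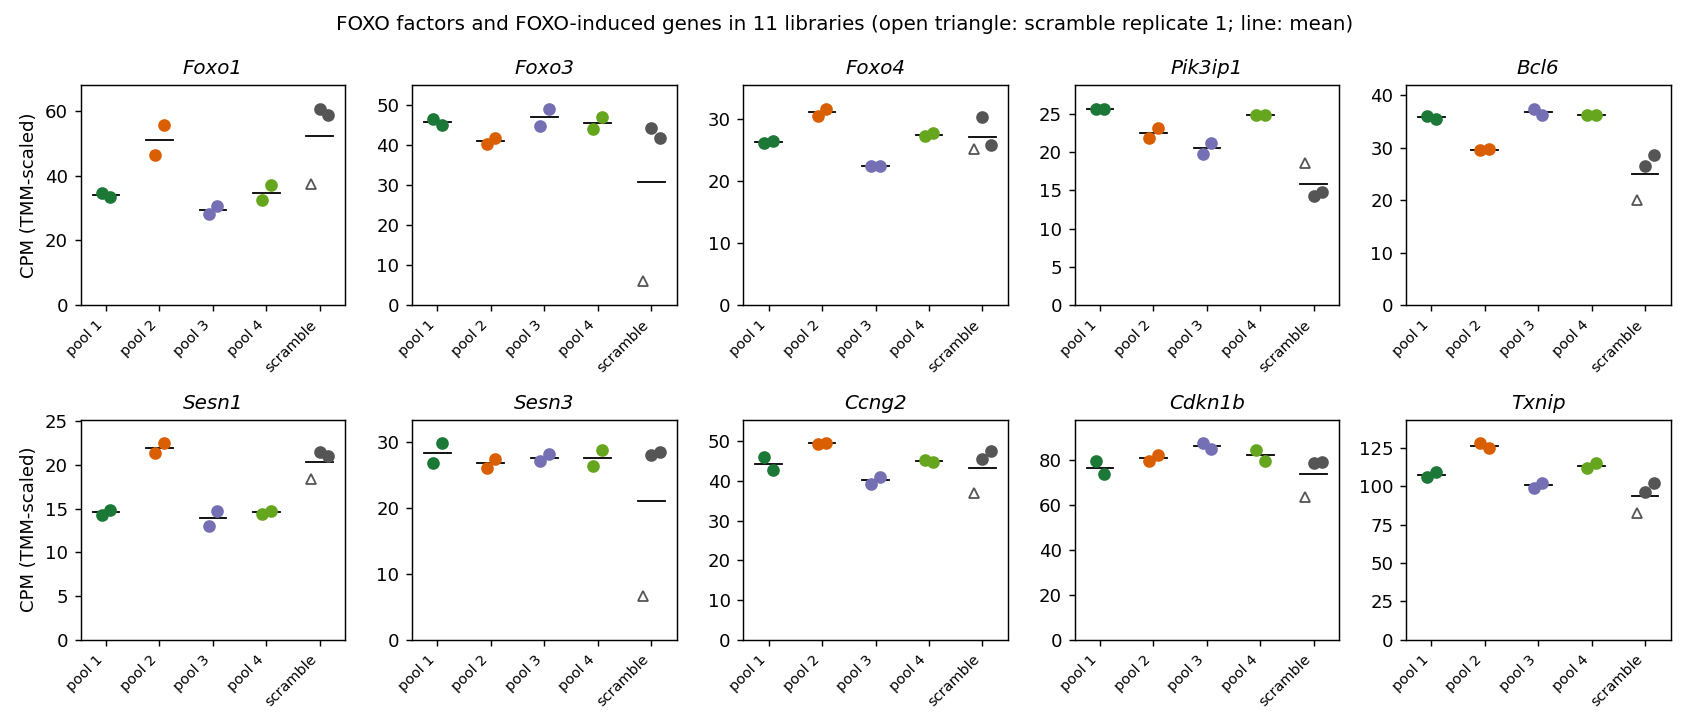
TMM-scaled CPM of each member (vertical axes, from 0) in the 2 libraries of pools 1, 2, 3 and 4 and the 3 scramble libraries, with lines at the group means and an open triangle for scramble replicate 1. Pik3ip1 is higher in every pool library (19.8 to 25.7 CPM) than in scramble (14.2 to 18.6 CPM). Foxo1 and Sesn1 are lower in every library of pools 1, 3 and 4 than in every scramble library. The share of all genes whose groups part in this way was not counted.

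The first question was which members changed with Akt1 knockdown over all 4 pools. With all 11 libraries none of the 10 passed the edgeR quasi-likelihood test at a Benjamini-Hochberg adjusted p below 0.05, where 0.00707% of the 14144 genes tested did (Akt1 alone). At an unadjusted p below 0.05 there were 4 members, namely Pik3ip1, Bcl6, Txnip and Foxo1, and 4041 genes in all. DESeq2 called 2 members and limma-voom none. Without scramble replicate 1, edgeR called Pik3ip1, higher in the pools, where 0.469% of the 14062 genes tested were called in either direction and 0.114% higher. That single call was lost when either of the 2 remaining scramble libraries was left out (edgeR adjusted p = 0.407 and 0.208), and also without any library of pool 1 or pool 4.

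Pool by pool, with scramble replicates 2 and 3 as the control, more members passed. Pool 1 had 5 of 10, with Pik3ip1, Bcl6 and Txnip higher and Foxo1 and Sesn1 lower, where 28.8% of all genes were called (11.8% higher, 17.0% lower). Pool 4 had the same 3 higher and the same 2 lower, where 31.0% of all genes were called (13.2% higher, 17.8% lower). Pool 3 had 6, with Pik3ip1 and Bcl6 higher and Foxo1, Foxo4, Sesn1 and Ccng2 lower, where 48.8% were called (22.7% higher, 26.1% lower). Pool 2 had Pik3ip1 and Txnip, both higher, where 4.39% were called (1.71% higher, 2.69% lower). The shares of members called were 50% in pools 1 and 4, 60% in pool 3 and 20% in pool 2, so in pool 3 the share was close to that of all genes. These 4 comparisons share their 2 control libraries. With all 3 scramble libraries the calls fell to 1 in pool 1 and 1 in pool 4 (Pik3ip1 in both), 3 in pool 3 (Foxo1, Bcl6 and Sesn1) and none in pool 2, where 1.93% (0.46% higher, 1.47% lower), 2.57% (0.58% and 1.99%), 11.2% (4.33% and 6.84%) and 0.00707% of all genes were called in pools 1, 4, 3 and 2. In pool 2, 2 members and 653 genes had an unadjusted p below 0.05 in that fit, and DESeq2 called no member and 28 genes. Those single calls in pools 1 and 4 were lost when any 1 library other than scramble replicate 1 was left out. In pool 3, Foxo1 was lost in the same way, Bcl6 without any library but scramble replicate 1 or 3 and with no filter on low counts (edgeR adjusted p = 0.054), and Sesn1 without either pool 3 library.

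**Figure D3:**
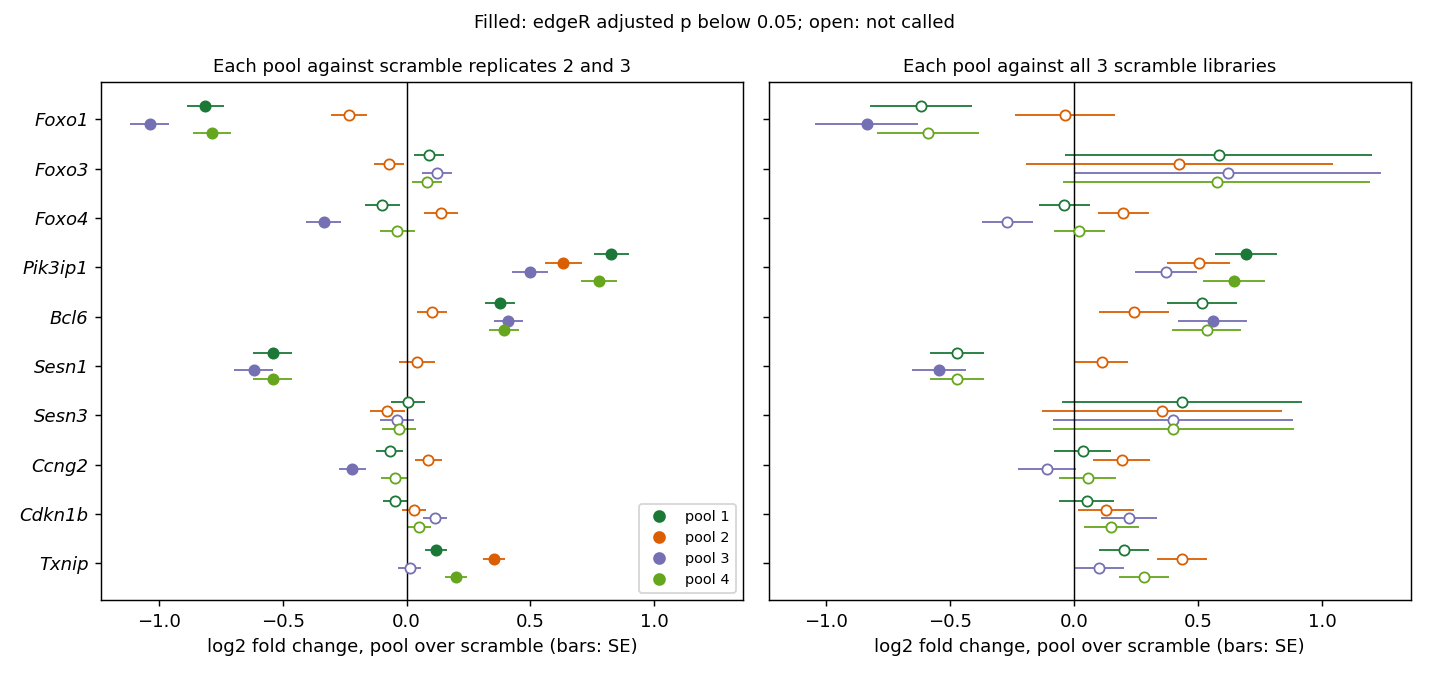
Log2 fold change of each pool over scramble (horizontal axes, same range) for the 10 members, with bars of 1 SE, against scramble replicates 2 and 3 (left) and all 3 scramble libraries (right). Filled points have an edgeR adjusted p below 0.05: 5, 2, 6 and 5 in pools 1, 2, 3 and 4 on the left, and 1, 0, 3 and 1 on the right, where Foxo3 and Sesn3 have the widest bars.

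The second question was which changes depended on the siRNA left out. Comparing pools 1, 3 and 4, which hold siRNA 7, with pool 2, which lacks it, used the 8 pool libraries alone and no scramble library. Here 7 of 10 members passed, with Foxo3 and Bcl6 higher and Foxo1, Foxo4, Sesn1, Ccng2 and Txnip lower, where 47.6% of the 14056 genes tested were called (22.3% higher, 25.3% lower). All 3 factors were among the 7. Pool 3 against pools 1 and 4 gave 6 members, with Cdkn1b higher and Foxo1, Foxo4, Pik3ip1, Ccng2 and Txnip lower, where 29.9% of genes were called (12.7% higher, 17.2% lower). Without pool 3 replicate 1 this count was 3, as Foxo1, Ccng2 and Cdkn1b were lost (edgeR adjusted p = 0.176, 0.114 and 0.195). Pool 1 against pool 4 gave none, where 0.0285% of genes were called, with edgeR adjusted p between 0.89 and 0.999. In that comparison 2 members and 777 genes had an unadjusted p below 0.05, and DESeq2 and limma-voom also called no member. A test of any difference among the 4 pools called 9 of 10 members, all but Sesn3, where 48.6% of genes were called. When the scramble libraries entered the same fit, the first of these counts was 1 with scramble replicate 1 and 7 without it.

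**Figure D4:**
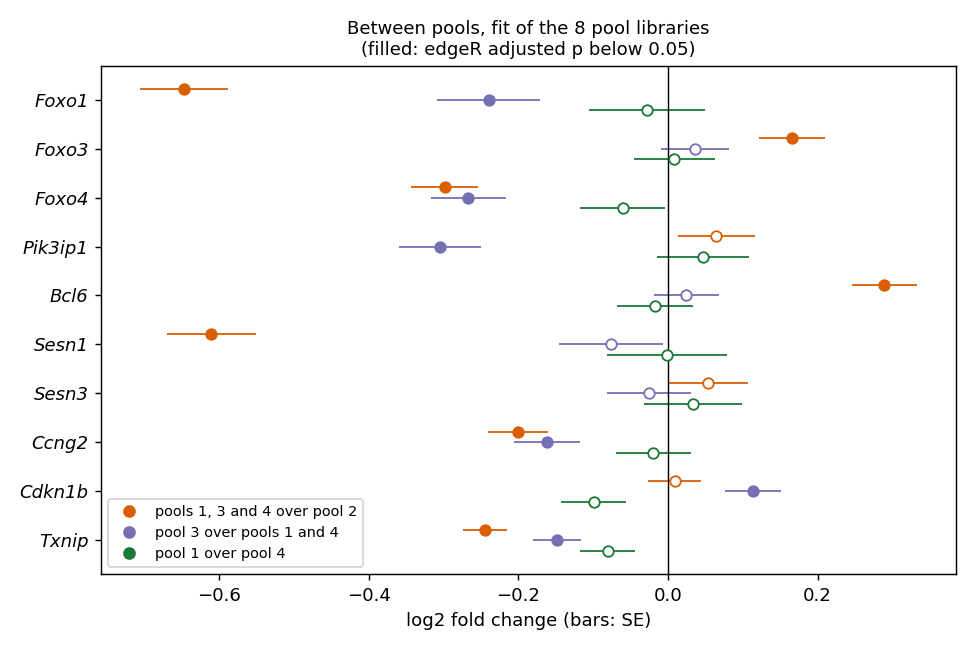
Log2 fold changes between pools (horizontal axis, bars of 1 SE) for the 10 members in the fit of the 8 pool libraries: pools 1, 3 and 4 over pool 2, pool 3 over pools 1 and 4, and pool 1 over pool 4. Foxo1 at −0.65 and Sesn1 at −0.61 lie farthest from 0 in the first of these, and all points of pool 1 over pool 4 are open, that is, not called.

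Among the factors, Foxo1 (ENSMUSG00000044167.6, chr3:52268336-52353221, plus strand, mm10) fell in the pools with siRNA 7. It was at 34.7 and 33.4 CPM in pool 1, 46.3 and 55.7 in pool 2, 28.1 and 30.5 in pool 3 and 32.5 and 37.0 in pool 4, against 37.4, 60.8 and 58.7 CPM in scramble. Every library of pools 1, 3 and 4 lay below every scramble library and below both pool 2 libraries, while pool 2 overlapped scramble. How many of all genes part in this way was not counted, for Foxo1 or for the genes below. Means were 32.7 ± 3.15 CPM in pools 1, 3 and 4 (SD, n = 6), against 51.0 ± 6.69 CPM in pool 2 (SD, n = 2), a log2 fold change of −0.65 ± 0.06 (SE; edgeR adjusted p = 8.25e-09), with all 6 libraries lower. Against scramble replicates 2 and 3 pool 1 had a log2 fold change of −0.81 ± 0.08, pool 2 one of −0.23 ± 0.07, pool 3 one of −1.04 ± 0.08 and pool 4 one of −0.78 ± 0.08 (edgeR adjusted p = 4.57e-08, 0.0795, 5.22e-10 and 8.26e-08). Pool 2 thus missed the threshold, though both its libraries lay below those 2 scramble libraries. That outcome turned on 1 library: without pool 2 replicate 2 the value was −0.37 and was called (edgeR adjusted p = 0.00803), and without replicate 1 it was −0.10. Pool 3 was lower than pools 1 and 4, at −0.24 ± 0.07 log2 (edgeR adjusted p = 0.0111). With all 3 scramble libraries pool 3 had −0.84 ± 0.21 log2 and passed (edgeR adjusted p = 0.0369), while pools 1 and 4 had −0.62 ± 0.20 and −0.59 ± 0.20 and did not (edgeR adjusted p = 0.199 and 0.203). The pool 3 call was lost under the replicate block (edgeR adjusted p = 0.0611) and when any 1 library other than scramble replicate 1 was left out (0.0634 to 0.255).

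Foxo3 (chr10:42181841-42276755, minus strand) varied little across pools. Its level was 46.7 and 45.1 CPM in pool 1, 40.4 and 41.8 in pool 2, 44.9 and 49.2 in pool 3 and 44.1 and 47.1 in pool 4, against 6.05, 44.4 and 41.7 CPM in scramble. Apart from scramble replicate 1, the libraries spanned 40.4 to 49.2 CPM. The log2 fold change of all pools over scramble was 0.55 ± 0.40 with that library and 0.06 ± 0.07 without it, and neither passed (edgeR adjusted p = 0.348 and 0.617). Foxo3 was higher in pools 1, 3 and 4 than in pool 2 by 0.17 ± 0.04 log2 (edgeR adjusted p = 0.004), a call lost without pool 2 replicate 1 (edgeR adjusted p = 0.0656).

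Foxo4 (chrX:101254528-101260873, plus strand) was low in pool 3. It stood at 26.2 and 26.5 CPM in pool 1, 30.5 and 31.7 in pool 2, 22.5 and 22.5 in pool 3 and 27.3 and 27.7 in pool 4, against 25.1, 30.4 and 25.8 CPM in scramble. Pool 3 lay below and pool 2 above all scramble libraries, and pools 1 and 4 overlapped them. Foxo4 fell in pool 3 against scramble replicates 2 and 3, at −0.33 ± 0.07 log2 (edgeR adjusted p = 0.00058), and against pools 1 and 4, at −0.27 ± 0.05 (edgeR adjusted p = 0.000359). The value against scramble was −0.20 without scramble replicate 2 and −0.44 without replicate 3, called both times. Without replicate 2 pool 2 also passed, higher (0.27; edgeR adjusted p = 0.0356), and without replicate 3 pool 1 passed, lower (−0.21; edgeR adjusted p = 0.0287). Against all 3 scramble libraries pool 3 had −0.27 ± 0.10 log2 and did not pass (edgeR adjusted p = 0.14). In pools 1, 3 and 4 Foxo4 was lower than in pool 2, at −0.30 ± 0.04 log2 (edgeR adjusted p = 1.12e-05). Foxo6, the other FOXO gene of mouse and no member here, was at 18 and 16 CPM in pool 1, 23.6 and 25.2 in pool 2, 12.3 and 13.7 in pool 3 and 16.4 and 16.4 in pool 4, against 37.9, 30.8 and 29.2 in scramble. All 8 pool libraries lay below all scramble libraries, with pool 3 lowest and pool 2 highest among the pools. Against all 3 scramble libraries pools 1, 3 and 4 had −0.94 ± 0.13, −1.33 ± 0.14 and −0.99 ± 0.13 log2. These passed (edgeR adjusted p = 0.0139, 0.00115 and 0.01), and pool 2 did not (0.611). The pools together did not pass with or without scramble replicate 1 (edgeR adjusted p = 0.102 and 0.131).

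Pik3ip1 encodes a transmembrane protein that binds and inhibits PI3K, and so acts upstream of AKT. Its promoter is shown because Pik3ip1 was the one member called higher in each of the 4 pools against scramble replicates 2 and 3, and the others because they hold a short FOXO-type motif. Promoter windows, from RefSeq (GRCm38.p6), cover 250 bases before and 50 after the start. Searched on both strands were the DAF-16 family element GTAAACA and the insulin response element CAAAACA, which end in the same letters but cannot match at the same place. Of the 10 members 9 had a window, 11 windows in all. One or the other motif was in 3 of 11 (27.3%), against 9.63% of all 32851 windows, and 3.65% of all windows held the first and 6.28% the second. A match describes letters and not a binding site. Txnip holds GTAAACA at base −121 from the start, Ccng2 holds CAAAACA at base −16, and Sesn1 holds GTAAACA on the minus strand at base 23 after the start of 1 of its 2 windows. In the sequences, all on the plus strand, capitals mark these motifs, and the Pik3ip1 window holds neither. Those of Txnip, Ccng2 and Pik3ip1 are the 250 bases before the start, at chr3:96557707-96557956, chr5:93267323-93267572 and chr11:3330481-3330730, and that of Sesn1 lies at chr10:41810585-41810613.
Txnip: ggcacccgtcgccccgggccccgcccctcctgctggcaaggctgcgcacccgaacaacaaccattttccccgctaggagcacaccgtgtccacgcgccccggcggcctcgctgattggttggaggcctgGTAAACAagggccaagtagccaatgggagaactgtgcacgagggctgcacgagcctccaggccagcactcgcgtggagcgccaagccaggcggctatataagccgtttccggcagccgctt
Ccng2: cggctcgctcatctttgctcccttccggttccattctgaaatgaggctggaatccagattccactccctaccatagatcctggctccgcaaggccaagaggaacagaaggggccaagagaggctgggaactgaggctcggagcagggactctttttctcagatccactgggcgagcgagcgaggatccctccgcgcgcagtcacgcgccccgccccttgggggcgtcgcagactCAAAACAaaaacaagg
Sesn1: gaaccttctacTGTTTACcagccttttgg
Pik3ip1: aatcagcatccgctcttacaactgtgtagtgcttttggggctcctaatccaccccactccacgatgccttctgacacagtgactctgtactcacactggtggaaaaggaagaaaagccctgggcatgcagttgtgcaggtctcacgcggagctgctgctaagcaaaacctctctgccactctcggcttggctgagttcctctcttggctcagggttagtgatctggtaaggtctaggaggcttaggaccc

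Pik3ip1 (ENSMUSG00000034614.14, chr11:3330401-3342971, plus strand) was at 25.7 and 25.7 CPM in pool 1, 21.8 and 23.2 in pool 2, 19.8 and 21.2 in pool 3 and 24.9 and 24.8 in pool 4, against 18.6, 14.2 and 14.8 CPM in scramble. All 8 pool libraries were higher than all 3 scramble libraries, and the share of all genes that part in this way was not counted. Means were 23.4 ± 2.23 CPM in the pools (SD, n = 8) and 15.9 ± 2.41 CPM in scramble (SD, n = 3). For the 8 pool libraries together it had a log2 fold change of 0.56 ± 0.11 (SE; edgeR adjusted p = 0.094) with all libraries and 0.69 ± 0.11 (edgeR adjusted p = 0.0355) without scramble replicate 1. Against scramble replicates 2 and 3, pool 1 gave 0.83 ± 0.07, pool 2 gave 0.63 ± 0.07, pool 3 gave 0.50 ± 0.07 and pool 4 gave 0.78 ± 0.07, all called (edgeR adjusted p at or below 1.35e-05). By that control Pik3ip1 was thus higher in pool 2 as well. Against all 3 scramble libraries pools 1 and 4 passed (edgeR adjusted p = 0.0353 and 0.037), while pools 2 and 3 did not (0.611 and 0.102). The difference between pools 1, 3 and 4 and pool 2 was 0.06 ± 0.05 log2 and did not pass (edgeR adjusted p = 0.317). Pool 3 lay below pools 1 and 4, at −0.31 ± 0.05 log2 (edgeR adjusted p = 0.000208), with 19.8 and 21.2 CPM against 24.8 to 25.7 CPM.

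Bcl6 (chr16:23965052-23988852, minus strand) encodes a zinc finger repressor, known in lymphocytes for control of the cell cycle and survival. It was at 36.1 and 35.5 CPM in pool 1, 29.5 and 29.8 in pool 2, 37.5 and 36.3 in pool 3 and 36.2 and 36.3 in pool 4, against 20, 26.6 and 28.6 CPM in scramble. Every pool library lay above every scramble library, pool 2 by the least. Bcl6 rose against scramble replicates 2 and 3 in pools 1, 3 and 4, by 0.38 ± 0.06, 0.41 ± 0.06 and 0.39 ± 0.06 log2 (edgeR adjusted p = 4.69e-05, 6.98e-06 and 3.08e-05), while pool 2 had 0.10 ± 0.06 (edgeR adjusted p = 0.43). Against all 3 scramble libraries pool 3 passed (edgeR adjusted p = 0.0389), while pools 1, 2 and 4 did not (0.125, 0.611 and 0.102). Bcl6 was higher in pools 1, 3 and 4 than in pool 2 by 0.29 ± 0.04 log2 (edgeR adjusted p = 9.71e-06), in 6 of 6 libraries. With the pools together, the log2 fold change was 0.47 ± 0.12 with all libraries and 0.32 ± 0.10 without scramble replicate 1 (edgeR adjusted p = 0.108 and 0.139).

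The sestrins Sesn1 and Sesn3 encode stress-induced proteins that restrain mTORC1, and here Sesn1 passed tests that Sesn3 did not. Sesn1 (chr10:41809935-41908424, plus strand) was at 14.3 and 14.9 CPM in pool 1, 21.4 and 22.5 in pool 2, 13 and 14.8 in pool 3 and 14.4 and 14.8 in pool 4, against 18.4, 21.5 and 21.0 CPM in scramble. Pools 1, 3 and 4 lay below all scramble libraries and below pool 2, which overlapped scramble. Their mean of 14.4 ± 0.72 CPM (SD, n = 6) was lower than the 21.9 ± 0.81 CPM of pool 2 (SD, n = 2), at −0.61 ± 0.06 log2 (SE; edgeR adjusted p = 2.68e-08). Compared with scramble replicates 2 and 3, Sesn1 fell in pools 1, 3 and 4, with log2 values of −0.54 ± 0.08, −0.62 ± 0.08 and −0.54 ± 0.08 log2 (edgeR adjusted p = 1.7e-05, 1.43e-06 and 2.01e-05), and pool 2 had 0.04 ± 0.07 (edgeR adjusted p = 0.842). Against all 3 scramble libraries Sesn1 passed in pool 3 (edgeR adjusted p = 0.0171) and not in pools 1, 2 and 4 (0.0776, 0.617 and 0.0714). Pool 3 did not differ from pools 1 and 4 beyond the error (−0.08 ± 0.07 log2, edgeR adjusted p = 0.444). Sesn3 (chr9:14275067-14333101, plus strand) was at 26.8 and 29.8 CPM in pool 1, 26.1 and 27.4 in pool 2, 27.1 and 28.1 in pool 3 and 26.4 and 28.8 in pool 4, against 6.60, 28.0 and 28.4 CPM in scramble. Apart from scramble replicate 1 all libraries lay between 26.1 and 29.8 CPM. Sesn3 passed in no comparison, and its log2 fold change over all pools was 0.40 ± 0.31 with scramble replicate 1 and −0.04 ± 0.06 without it (edgeR adjusted p = 0.382 and 0.725).

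Ccng2 encodes cyclin G2, an atypical cyclin linked to cell cycle arrest, and Cdkn1b encodes p27, an inhibitor of cyclin-dependent kinases. Ccng2 (chr5:93267257-93276231, plus strand) was at 46.0 and 42.7 CPM in pool 1, 49.4 and 49.5 in pool 2, 39.2 and 41.1 in pool 3 and 45.2 and 44.9 in pool 4, against 37.0, 45.5 and 47.5 CPM in scramble. Pool 2 was the highest group and pool 3 the lowest of the pools. Ccng2 was lower in pools 1, 3 and 4 than in pool 2, at −0.20 ± 0.04 log2 (edgeR adjusted p = 0.00028) and lower in pool 3 than in pools 1 and 4, at −0.16 ± 0.04 (edgeR adjusted p = 0.00781). Against scramble replicates 2 and 3 it fell in pool 3 alone, at −0.22 ± 0.06 log2 (edgeR adjusted p = 0.00265). That fall did not pass against all 3 scramble libraries (−0.11 ± 0.12 log2, edgeR adjusted p = 0.559). Cdkn1b (chr6:134920401-134925513, plus strand) was at 79.6 and 73.8 CPM in pool 1, 79.5 and 82.4 in pool 2, 87.6 and 85.2 in pool 3 and 84.6 and 79.9 in pool 4, against 63.8, 79.0 and 79.4 CPM in scramble. It passed in no comparison with scramble. In pool 3 it was near the threshold against scramble replicates 2 and 3, at 0.12 ± 0.05 log2 (edgeR adjusted p = 0.0523), and was called with RLE scaling (0.0456) and without any 1 library of pools 1, 2 or 4 (0.0399 to 0.0486). Pool 3 was higher than pools 1 and 4 by 0.11 ± 0.04 log2 (edgeR adjusted p = 0.0257), which DESeq2 did not call (DESeq2 adjusted p = 0.0862). The call was also lost with all scramble libraries in the fit. It was lost too without pool 1 replicate 2, pool 3 replicate 1 or pool 4 replicate 2 (0.087, 0.094 and 0.093 log2).

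Txnip (chr3:96557957-96561883, plus strand) encodes a thioredoxin-binding protein that limits glucose uptake and is also a target of glucose-sensing transcription factors. It was at 106 and 109 CPM in pool 1, 128 and 125 in pool 2, 99.0 and 102 in pool 3 and 112 and 115 in pool 4, against 82.6, 96.1 and 102 CPM in scramble. Pools 1, 2 and 4 lay above all scramble libraries, pool 2 the highest, and pool 3 overlapped them. Against scramble replicates 2 and 3 Txnip rose in pool 2 by 0.35 ± 0.04 log2 (edgeR adjusted p = 4.12e-05) and in pool 4 by 0.20 ± 0.05 (edgeR adjusted p = 0.00177). In pool 1 the value was 0.12 ± 0.04, just inside the threshold, and this call was lost under DESeq2 (adjusted p = 0.0828) and when any library except scramble replicate 3 was left out. Pool 3 had 0.01 ± 0.05 (edgeR adjusted p = 0.842). No pool passed against all 3 scramble libraries (edgeR adjusted p = 0.404, 0.611, 0.541 and 0.22 in pools 1, 2, 3 and 4). Txnip was lower in pools 1, 3 and 4 than in pool 2, at −0.24 ± 0.03 log2 (edgeR adjusted p = 5.31e-07) and lower in pool 3 than in pools 1 and 4, at −0.15 ± 0.03 (edgeR adjusted p = 0.00133).

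The authors also compared the pools with scramble, and the authors' deposited table lists 24490 genes, of which 10136 have an adjusted p and 985 (9.72%) are below 0.05. Of the 10 members 8 have an adjusted p in the authors' deposited table, and 2 are below 0.05. These are Pik3ip1, with a log2 fold change of 0.53 ± 0.11 (adjusted p = 0.000797), and Bcl6, with 0.44 ± 0.12 (adjusted p = 0.0134), both from the authors' deposited table. Foxo1 has −0.40 ± 0.19 and an adjusted p of 0.123 in the authors' deposited table, and Foxo3 and Sesn3, the members lowest in scramble replicate 1, have no p there.

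Other genes of the pathway moved both ways. A list of 43 further genes described as FOXO-induced had 35 members tested. Against scramble replicates 2 and 3, 6 were higher and 9 lower in pool 1, 1 and 2 in pool 2, 9 and 11 in pool 3, and 7 and 8 in pool 4. These are 42.9%, 8.57%, 57.1% and 42.9% of those tested, where 28.8%, 4.39%, 48.8% and 31.0% of all genes were called, so that pool 3 was near its share of all genes. Median log2 fold changes were between −0.10 and 0.01, and those of all genes between 0.00091 and 0.0051. Against all 3 scramble libraries none of the 35 was called in pools 1, 2 and 4, where 1.93%, 0.00707% and 2.57% of all genes were. In pool 3, 4 were then higher and 4 lower, 22.9% of those tested, where 11.2% of all genes were called. In pools 1, 3 and 4 against pool 2, 11 were higher and 16 lower, 77.1% of those tested, where 47.6% of all genes were called (22.3% higher, 25.3% lower). Without pool 2 replicate 2 the list's count was 18. Ulk1, a kinase that starts autophagy, was at 46.8 to 55.9 CPM in pools 1, 3 and 4, 79.5 and 80.2 in pool 2, and 47.7, 77.6 and 74.7 in scramble, and fell in pools 1, 3 and 4 against pool 2, at −0.63 ± 0.03 log2 (edgeR adjusted p = 1.12e-12). Bbc3, which encodes the apoptosis promoter PUMA, was at 17.7 to 24.5 CPM in pools 1, 3 and 4 and 15.8 and 14.9 in pool 2. Scramble had 26.8, 16.3 and 13.8 CPM. Against pool 2 the rise in Bbc3 was 0.45 ± 0.06 log2 (edgeR adjusted p = 4.84e-06). Sod2, the mitochondrial superoxide dismutase, was at 30.4 to 44.9 CPM in all pools, against 71.7, 51.3 and 48.5 in scramble. It fell in pool 3 with all libraries (−0.87 ± 0.17 log2; edgeR adjusted p = 0.0138), a call lost without either pool 3 library (0.144 and 0.104), and without scramble replicate 1 it was −0.68 (edgeR adjusted p = 7.53e-09). Over all pools without scramble replicate 1, 2 of the 35 were called (5.71%, against 0.469% of all genes), both lower: Ctsl, a lysosomal protease, with −0.45 ± 0.08 log2, and Ddit4, an inhibitor of mTORC1, with −0.37 ± 0.07 (edgeR adjusted p = 0.0466 for both). Both calls were lost under the replicate block (edgeR adjusted p = 0.573 for both) and when any 1 library outside pool 2 was left out (0.0554 to 0.434).

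Of 11 genes described as held down by FOXO factors, all were tested. In pools 1, 3 and 4 against pool 2, 5 were higher and 1 lower, 54.5% of the list, near the 47.6% of all genes (22.3% higher, 25.3% lower). Ccnd2, the cyclin D2 of proliferating granulosa cells, was at 1260 to 1460 CPM in pools 1, 3 and 4, 1000 and 927 in pool 2, and 373, 1040 and 996 in scramble. It rose by 0.45 ± 0.03 log2 against pool 2 (edgeR adjusted p = 4.53e-11). Fdps, of the sterol pathway, was higher than in pool 2 by 0.39 ± 0.04 (edgeR adjusted p = 5.87e-08). Its level was 60.6 to 68.6 CPM in pools 1, 3 and 4, 47.3 and 50.5 in pool 2, and 132, 65.4 and 59.8 in scramble. Against scramble replicates 2 and 3 Fdps was called in pool 2 alone, lower, at −0.36 ± 0.06 log2 (edgeR adjusted p = 0.000437). The inhibin subunit gene Inha fell in pools 1, 3 and 4 against pool 2, with −0.39 ± 0.04 (edgeR adjusted p = 8.51e-09). Against scramble replicates 2 and 3, 1 was higher and 3 lower in pool 1, none and 4 in pool 2, 3 and 4 in pool 3, and 1 and 3 in pool 4. These are 36.4%, 36.4%, 63.6% and 36.4% of the list, where 28.8%, 4.39%, 48.8% and 31.0% of all genes were called. With all 3 scramble libraries none was called in pools 1, 2 and 4, where 1.93%, 0.00707% and 2.57% of all genes were. In pool 3, 2 were then called, both lower (18.2% of the list), where 11.2% of all genes were called. Mvd, of the sterol pathway, was the one called over all pools without scramble replicate 1, at −0.47 ± 0.09 log2 (edgeR adjusted p = 0.0466). That call was lost under limma-voom (adjusted p = 0.0509) and the replicate block (edgeR adjusted p = 0.344), and when any 1 library outside pool 2 was left out (0.0658 to 0.458). The value was −0.29 without scramble replicate 2 and −0.63 without replicate 3.

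Of 28 regulators of FOXO factors, Akt1 among them, 5 were higher and 9 lower in pool 1 against scramble replicates 2 and 3, 1 and 2 in pool 2, 7 and 10 in pool 3, and 5 and 10 in pool 4. With Akt1 counted, these are 50%, 10.7%, 60.7% and 53.6% of the list, where 28.8%, 4.39%, 48.8% and 31.0% of all genes were called. Against all 3 scramble libraries Akt1 alone (3.57%) was called in pools 1, 2 and 4, where 1.93%, 0.00707% and 2.57% of all genes were. In pool 3, 2 were then higher and Akt1 lower, 10.7% of the list, where 11.2% of all genes were called. In pools 1, 3 and 4 against pool 2, 9 regulators were higher and 12 lower, 75% of the list. Of all genes 47.6% were called there (22.3% higher, 25.3% lower). Pdpk1, the kinase that phosphorylates AKT, was at 75.7 to 88.6 CPM in pools 1, 3 and 4, against 115 and 115 in pool 2. The difference was −0.47 ± 0.03 log2 (edgeR adjusted p = 9.22e-12), and scramble had 32.3, 107 and 111 CPM. Sgk1, which also phosphorylates FOXO proteins, fell by the same size, −0.47 ± 0.03 (edgeR adjusted p = 8.53e-12). It was at 110 to 121 CPM in pools 1, 3 and 4, 159 and 161 in pool 2, and 126, 142 and 148 in scramble.

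**Figure D5:**
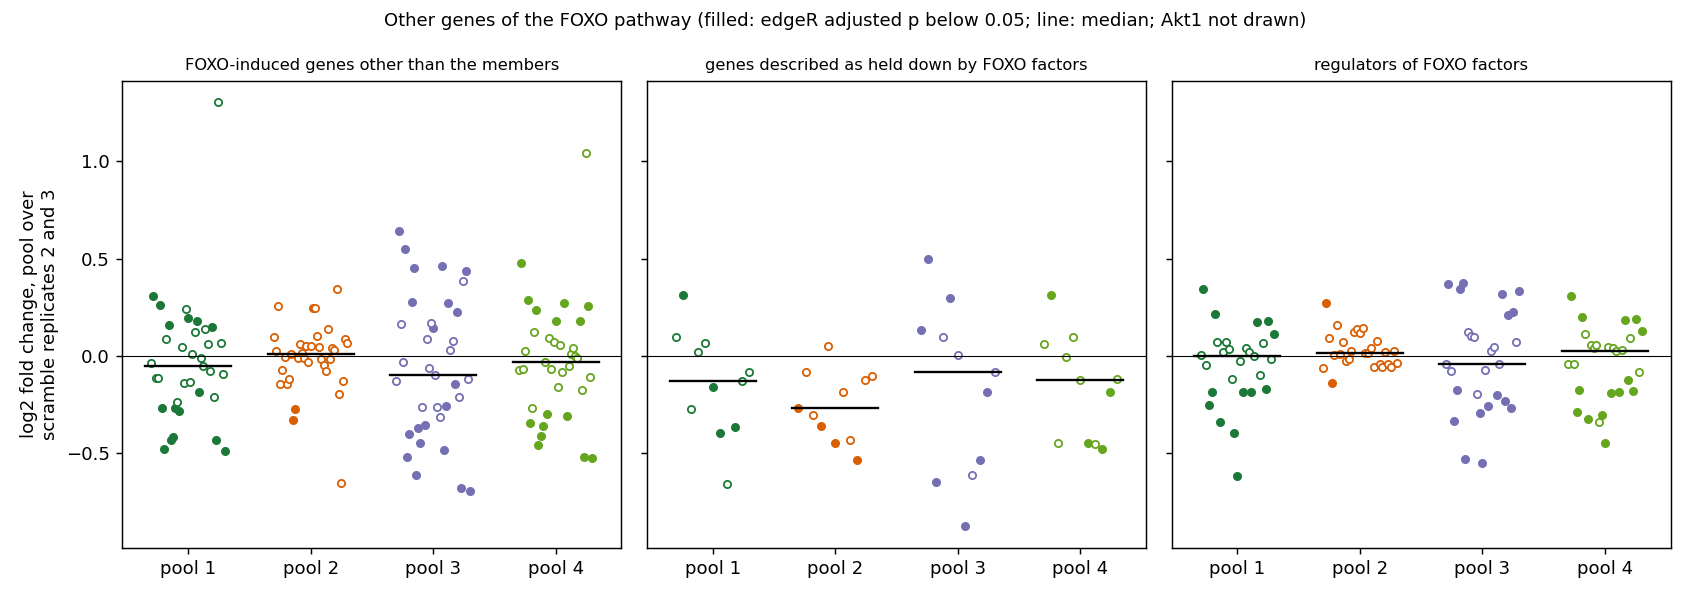
Log2 fold changes of each pool over scramble replicates 2 and 3 (vertical axis) for the tested genes of 3 lists: 35 other FOXO-induced genes, 11 genes described as held down by FOXO factors, and the regulators, of which Akt1 is not drawn. Filled points have an edgeR adjusted p below 0.05, lines are medians, and filled points lie on both sides of 0 in each list.

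Over the 10 libraries without scramble replicate 1, and among 10681 candidate genes, log2 CPM of some genes followed a member closely. Foxo1 was followed most closely by Pde8a (Pearson r = 0.993) and Peli2 (0.992). Sesn1 was followed by Ski and Simc1 (0.993 each), and Ccng2 by Gramd1c (0.994) and Igf1 (0.978). Bcl6 had Aifm1 (0.987) and Senp7 (0.985), Foxo4 had Fam132a (0.98) and Wbscr17 (0.969), and Foxo3 had Tgfb1 (0.974) and Naglu (0.964). Cdkn1b had Lcorl (0.972) and Dgcr14 (0.965). Values were lower for Pik3ip1 with Rpl22 (0.946) and Nol4l (0.945), and for Txnip with Dennd5a (0.944) and Ankrd28 (0.936). The points are 5 groups with 2 libraries each, scramble among them, so these values rest mainly on differences between groups.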

How the data were processed

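The counts of 11 libraries were used as deposited by the authors, as whole numbers per gene symbol and not normalized. Per the labels' protocols, 1.3 µg of total RNA went into stranded mRNA libraries (TruSeq) read as single 75-base reads. Per the submitters' processing notes, mm10 was the build and the tools included TopHat2, featureCounts 1.5.0-p2, cutadapt 1.9.1 and DESeq2. The strand setting of the counting is not given in the sources used here. Also, reads that overlapping or near-identical genes share cannot be separated. In the authors' deposited table, which compares the pools with scramble, the columns are named as a mean signal, a log2 fold change, its SE, a test score, a p-value and an adjusted p-value.

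ERCC spike-in lines (0.268% to 0.788% of counts) were left out of totals and tests. Tests used the quasi-likelihood F test of edgeR 4.0.16 (two-sided, R 4.3.3), TMM scaling and filterByExpr on the labelled groups. These were the 5 groups, or the 4 pools in the fit of the pool libraries. P-values were adjusted over all genes tested (Benjamini-Hochberg, threshold 0.05). All pools against scramble compared 8 libraries with 3 as 2 groups, so differences between pools count as error. Single pools used 1 fit with 5 groups, and comparisons between pools used 1 fit of the 8 pool libraries. The procedure was tested on simulated data with the same dispersion (spread beyond sampling noise) in every gene and no library that stands apart. That check thus does not cover the case of scramble replicate 1. Alternatives were RLE scaling, no filter, CPM above 1 in every library, DESeq2 1.42.0, limma-voom (limma 3.58.1), a replicate block, another grouping of the fit, and each library left out. Replicates differed by more than sampling noise in every group. Transcript lengths and gene coordinates come from GENCODE M21 (GRCm38).

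The members and gene lists were chosen with earlier results of these data known. All 10 members are named in every comparison, and up to 3 called genes per list by size of change if their log2 CPM averaged 2 or more, of which a part is printed; 1 gene of the regulators is not reported here by name. The 2 genes most like a member had the highest Pearson r of log2 CPM (prior count 2), passing over predicted genes, pseudogenes, mitochondrial genes and other members.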

Additional observations from a re-analysis of the deposited data

Results flagged for a closer look

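Among the 4 pools, 9 of the 10 members differed by a test of the difference itself (edgeR F test over the 8 pool libraries, adjusted over all genes). Foxo1 had an adjusted p of 5.51e-08, Sesn1 of 3.28e-07, Txnip of 7.14e-07, Foxo4 of 4.91e-06, Bcl6 of 0.000103, Ccng2 of 0.000271 and Pik3ip1 of 0.000566. Foxo3 (0.0242) and Cdkn1b (0.0243) were nearest to the threshold and were not called by DESeq2 (DESeq2 adjusted p = 0.114 and 0.104). Since 48.6% of all genes differed among the pools by this test, a difference between pools is common in these libraries. A rule on the gap to the nearest library, applied to all 8 pool libraries together, flagged no library for any of the 10 members. Since the pools differ, this rule can miss a library that stands apart from the other library of its pool.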

How the results depend on the processing

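The comparison of all pools with scramble depended most on the processing. With all libraries, against 0 members and 1 gene, DESeq2 called 2 members and 1147 genes, the mean of the pools in the fit with 5 groups 3 and 901, and RLE scaling or no filter 2 genes. Leaving out 1 library gave 0 to 2 members and 1 to 2336 genes, the highest without scramble replicate 3. Without scramble replicate 1, against 1 member and 66 genes, DESeq2 called 3 and 572, the fit with 5 groups 5 and 5034, and leaving out 1 more library 0 to 3 and 2 to 439. For single pools with all libraries, DESeq2 called 3 members and 788 genes in pool 1, 28 genes in pool 2, and 3 members and 872 genes in pool 4. Leaving out 1 library gave 0 to 5 members and 9 to 4044 genes in pool 1, 0 to 2 and 1 to 618 in pool 2, 0 to 6 and 210 to 6864 in pool 3, and 0 to 5 and 17 to 4364 in pool 4, the highest each time without scramble replicate 1. Without scramble replicate 1 these ranges were 4 to 6 and 2697 to 4003, 2 to 3 and 248 to 1175, 6 to 7 and 5532 to 6799, and 5 to 5 and 2918 to 4451. Between pools, the fit with scramble replicate 1 in it left 1 member and 743 genes for pools 1, 3 and 4 against pool 2, 0 and 2 for pool 3 against pools 1 and 4, 0 genes for pool 1 against pool 4, and 1 and 348 for any difference. The same fit without that library gave 7 and 6149, 6 and 3469, 3 genes, and 8 and 6017, and was chosen after seeing the data, as were all alternatives on the 10 libraries. Leaving out 1 library gave 6 to 7 members and 5145 to 6567 genes, 3 to 6 and 2463 to 4238, 0 to 0 and 2 to 37, and 8 to 9 and 5753 to 6789. DESeq2 called 2774 genes for pool 3 against pools 1 and 4, and no filter gave 41 for pool 1 against pool 4. Replicate 1 libraries did not deviate together from their group means (r between −0.046 and 0.073 over 10 pairs). This cannot decide whether same-numbered libraries share a culture or day, which need not leave a common deviation. The replicate block gave 2 members and 1649 genes over all pools, 0 and 96 in pool 1, 0 and 151 in pool 4, and without scramble replicate 1 it gave 0 and 1 over all pools and 949 genes in pool 2. Under the block the log2 fold change changed sign for Foxo1 in pool 2 (0.07), Foxo4 in pool 4 (−0.010), and, without scramble replicate 1, Sesn3 over all pools (0.029), in pool 3 (0.025) and in pool 4 (0.033). Leaving out 1 library changed the sign of some small values. Over all pools against scramble the log2 fold changes then were Foxo4 −0.070 to 0.078, Sesn3 −0.035 to 0.68 and Ccng2 −0.059 to 0.12. In pool 1 they were Foxo4 −0.097 to 0.051, Ccng2 −0.067 to 0.11 and Cdkn1b −0.047 to 0.10. In pool 2 they were Foxo1 −0.23 to 0.093, Foxo3 −0.070 to 0.79 and Sesn3 −0.077 to 0.64. In pool 3 they were Sesn3 −0.037 to 0.68. In pool 4 they were Foxo4 −0.038 to 0.11, Sesn3 −0.030 to 0.68 and Ccng2 −0.048 to 0.13. Without scramble replicate 1 as well, they were, over all pools, Foxo4 −0.18 to 0.057. In pool 1 without it they were Foxo4 −0.21 to 0.029, Sesn3 −0.074 to 0.085 and Cdkn1b −0.10 to 0.0073. In pool 3 without it they were Txnip −0.023 to 0.062. In pool 4 without it they were Foxo4 −0.14 to 0.091 and Sesn3 −0.095 to 0.033. Between pools they were Cdkn1b −0.017 to 0.039 for pools 1, 3 and 4 against pool 2, and Foxo3 −0.027 to 0.098, Sesn1 −0.17 to 0.0081 and Sesn3 −0.057 to 0.015 for pool 3 against pools 1 and 4. No call changed its sign under any of these alternatives. Of the values for single genes, 1046 kept direction and call under another setting, 63 lost the call, 18 gained it and 5 changed sign. With 1 library left out 35 changed sign, and a larger share lost the call than under another setting. The cause of these changes was not tested. With 2 libraries a pool, small differences may be missed.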
